A study of Mus musculus with 6 samples.

Results

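The Toll-like receptors and Myd88, the adaptor that most of them signal through, were followed in whole back skin of mice treated with imiquimod cream. Members were the probes whose gene name in the array files was Tlr1 to Tlr9 or Myd88, which gave 10 genes and 12 probes among the 41115 probes measured. Of these, 9 genes and 10 probes were tested, among 17775 genes and 27415 probes, because 3 or more of the 6 arrays gave a signal that the extraction software called well above background. The untested probes were the single probe of Tlr8 and the second of 2 probes of Tlr4. Female mice of the inbred strain C57BL/6J received 62.5 mg of cream with 5% imiquimod on the shaved back each day for 7 days, and control mice received the same amount of vehicle cream. The mice were 6 to 8 weeks old and the labels name no engineered allele. There were 3 samples per group, hybridised to 1 Agilent array each with a single dye. Separate animals are not stated in the labels, so the spread behind each p-value is that between samples and can be technical in part.

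The treatment of an array is recorded differently in separate places. For 6 of 6 arrays the treatment word in the scanner file's name contradicted the title of the sample that the file was deposited with. The deposited value table gives a second record: each scanner file ranked 24253 probes as the table's column for the other group's sample of the same number did, with a Spearman correlation of at least 0.9999997, against 0.943 to 0.953 with the column of its own filing. Each array was therefore given to the sample whose column it matched, and differences are imiquimod minus vehicle on this reading. Taking the files as filed turns the sign of each difference given here and leaves its size. A list of 14 known imiquimod responses was chosen with earlier results of these data known. It is therefore not an independent check of the reading. From this list Defb4 was not on the array. Il17a was well above background on 2 arrays, and Il22, Il23a and Il17f on 1 each, which is fewer than the test asked for. On the reading used, 9 of 9 tested genes of the list rose, with a median log2 difference of 5.41, 8 of them detected in both groups. They included Krt6b, a keratin of thickened epidermis, at 5.41 (SE 0.33), Lcn2, an antimicrobial lipocalin, at 4.46 (SE 0.34) and Saa3, an acute phase protein, at 8.31 (SE 0.69), with adjusted p of 0.00142, 0.00178 and 0.00207 by limma with Benjamini-Hochberg adjustment.

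Toll-like receptors recognise molecules of microbes and of damaged cells. Tlr1, Tlr2, Tlr4, Tlr5 and Tlr6 sit on the cell surface, and Tlr1 and Tlr6 work as partners of Tlr2 in the recognition of lipoproteins. Tlr3, Tlr7, Tlr8 and Tlr9 sit in endosomes and recognise nucleic acids, and imiquimod is a small-molecule agonist of Tlr7. All of these except Tlr3 pass the signal through Myd88 to the Irak kinases, Traf6, NF-kappaB and interferon regulatory factors. In skin they are carried by leukocytes and, for some members, by keratinocytes. A whole-skin array gives 1 level over all cells, so more or fewer cells of a type and more or less RNA per cell cannot be told apart.

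Tlr1, Tlr2, Tlr6 and Myd88 rose in imiquimod-treated skin, by 9.68-fold, 3.81-fold, 5.47-fold and 1.74-fold. They were the 4 of 9 tested members with an adjusted p under 0.05, and no member fell. Over all genes tested, 23.6% were called, 13.1% as higher and 10.5% as lower. At an unadjusted p under 0.05, 5 members were higher and 1, Tlr3, was lower. The receptor of imiquimod itself, Tlr7, lay 2.34-fold higher but missed the threshold. The groups did not overlap for 7 of the 9 tested members, 6 with imiquimod higher and 1 with imiquimod lower, against 46.6% of all genes (25.9% with imiquimod higher and 20.7% lower). The median log2 difference of the tested members was 0.80, against 0.02 over all genes.

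**Figure D1:**
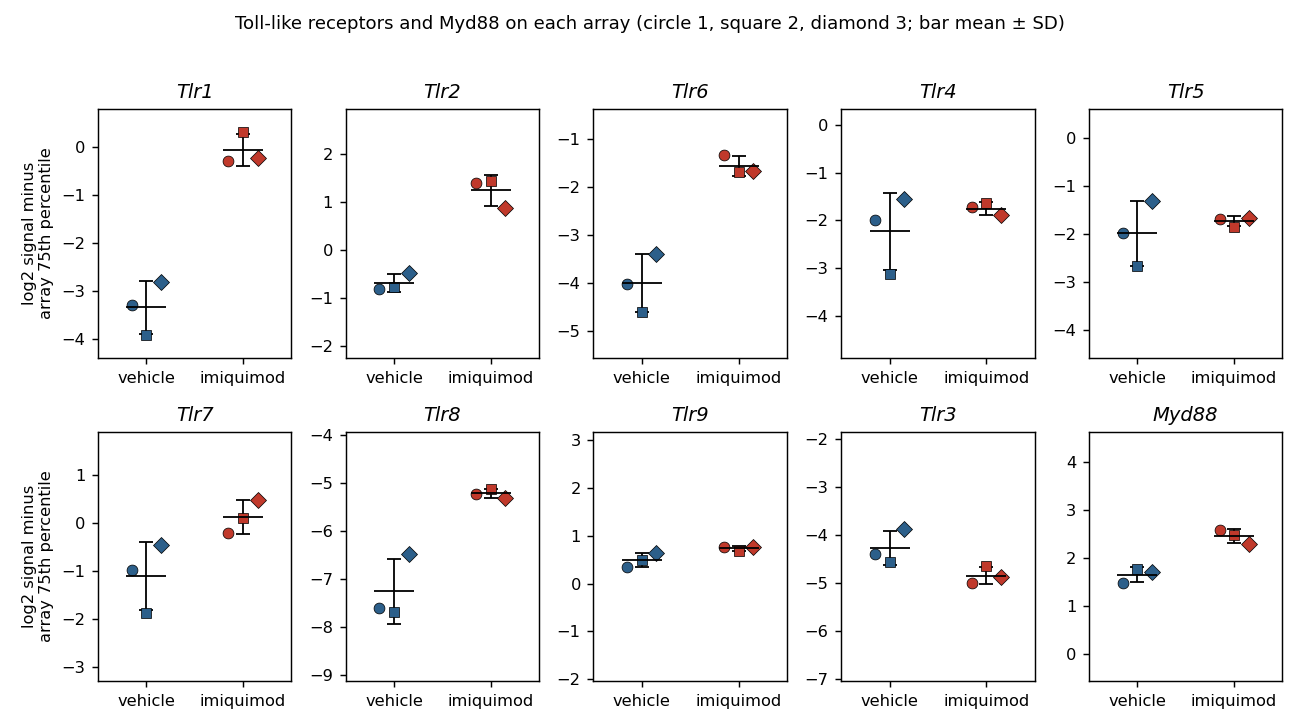
Log2 signal minus the array's 75th percentile (vertical axis, log scale, the same span of units in each panel) for each member in the 3 vehicle and 3 imiquimod samples; symbols mark the sample number, and horizontal bars with whiskers give mean ± SD. Imiquimod samples lie above the vehicle samples without overlap for Tlr1, Tlr2, Tlr6, Tlr7, Tlr8, Tlr9 and Myd88 and below them for Tlr3; the vehicle signals of Tlr8 were not above background.

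The values below are the log2 processed signal of a probe minus the 75th percentile of its array, so a value of 0 lies at that percentile. They compare arrays for 1 probe and give no order between genes. Positions of probes are those of the array files, on mm9, and no exon annotation of that build was used here.

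Tlr7, the single-stranded RNA receptor that imiquimod activates, was measured by 1 probe at chrX:163743189-163743248 on the minus strand. Its log2 values were -0.21, 0.10 and 0.49 in imiquimod samples 1 to 3 and -0.98, -1.87 and -0.46 in vehicle samples 1 to 3. The lowest imiquimod sample lay just above the highest vehicle sample, and the vehicle samples were spread more widely than the imiquimod samples. The group means were 0.13 ± 0.35 and -1.10 ± 0.71 (SD, n = 3 each). The log2 difference was 1.23 (SE 0.39, 95% interval 0.28 to 2.17), with an adjusted p of 0.0674 by limma. Without vehicle sample 3, the highest of its group, the difference was 1.55 and passed (adjusted p 0.0305 by limma).

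Tlr8, the neighbour and closest relative of Tlr7, was measured by 1 probe at chrX:163680715-163680774. It was well above background in 2 of 3 imiquimod samples and in 0 of 3 vehicle samples. Its log2 values were -5.22, -5.12 and -5.31 with imiquimod, and the measured vehicle values of -7.61, -7.69 and -6.48 were not well above background. With each vehicle value raised to the lowest signal called well above background on its array, Tlr8 was 1.22-fold higher with imiquimod. This is not a strict lower bound. Imiquimod sample 1, at -5.22, was itself below the lowest such signal of its array (-4.87) and entered as measured. Tlr8 was not tested, since fewer than 3 of the 6 arrays were well above background, and its vehicle values are bounds.

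Tlr9, the receptor of unmethylated CpG DNA, varied little. Its probe at chr9:106128979-106129038 gave 0.76, 0.68 and 0.77 with imiquimod and 0.35, 0.49 and 0.63 with vehicle. The groups did not overlap, but the gap between them was small beside the spread of the vehicle samples. The log2 difference of 0.25 (SE 0.11, 95% interval -0.03 to 0.53) did not pass (adjusted p 0.165 by limma).

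Tlr3 recognises double-stranded RNA and signals through Ticam1, not Myd88. It was the only tested member whose fitted difference was below 0. Its brighter probe, at chr8:46482009-46482068, gave -5.01, -4.66 and -4.88 with imiquimod and -4.40, -4.56 and -3.87 with vehicle. The log2 difference was -0.57 (SE 0.21, 95% interval -1.09 to -0.06), with an adjusted p of 0.0991 by limma. A second probe, at chr8:46481729-46481788, gave -0.45 (SE 0.16, adjusted p over all tested probes 0.0945 by limma, where 21.2% of probes were called), so both probes lay on the same side. Both were dim: neither was well above background in imiquimod sample 1.

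Tlr1, Tlr2 and Tlr6 form the lipoprotein receptors of the cell surface, with Tlr2 as the shared chain, and each of them rose. Related receptors can share sequence, which matters for what a hybridisation probe measures, so the probes of the lipoprotein receptors are shown with that of Tlr8, on mm9 and 5′ to 3′ as given in the array files. Capitals mark TTTTGG, a run found in 3 of the 12 member probes, which was noticed on reading them.
Tlr1, chr5:65316115-65316174: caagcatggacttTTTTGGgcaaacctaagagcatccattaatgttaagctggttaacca
Tlr2, chr3:83640344-83640403: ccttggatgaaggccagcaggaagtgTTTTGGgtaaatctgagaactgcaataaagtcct
Tlr6, chr5:65344365-65344424: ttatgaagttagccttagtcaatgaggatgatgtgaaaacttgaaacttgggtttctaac
Tlr8, chrX:163680715-163680774: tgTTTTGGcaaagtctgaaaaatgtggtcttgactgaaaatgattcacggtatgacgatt
Across the 64 pairs of probes of different members, the longest shared run was 4 to 8 bases, and at most 29 of 60 bases were identical in an ungapped alignment. Between the probes of Tlr1 and Tlr6, which lie near each other on the chromosome, the longest shared run was 5 bases. How far these probes bind transcripts of other genes was not tested.

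Tlr1 had the largest difference among the tested members. Its log2 values were -0.30, 0.31 and -0.22 with imiquimod and -3.30, -3.92 and -2.81 with vehicle, with a wide gap between the groups. The means were -0.07 ± 0.33 and -3.34 ± 0.56 (SD, n = 3 each). The log2 difference was 3.27 (SE 0.32, adjusted p 0.0029 by limma), a fold of 9.68 with a 95% interval of 5.62 to 16.6.

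Tlr6, the other partner of Tlr2, gave -1.33, -1.70 and -1.67 with imiquimod and -4.04, -4.61 and -3.40 with vehicle. The imiquimod samples lay close together and well above the vehicle samples. Tlr6 thus differed by a log2 value of 2.45 (SE 0.32, 95% interval 1.68 to 3.22, adjusted p 0.00577 by limma).

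The probe of Tlr2 was printed on 10 spots of each array, and the spots of an array varied by an SD of 0.06 to 0.10. Its log2 values were 1.40, 1.45 and 0.88 with imiquimod and -0.81, -0.77 and -0.48 with vehicle. The spread between samples thus exceeded that between spots, and the groups were far apart. The means were 1.24 ± 0.31 and -0.69 ± 0.18 (SD, n = 3 each), and the log2 difference was 1.93 (SE 0.19, 95% interval 1.46 to 2.40, adjusted p 0.0031 by limma).

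Tlr4, the lipopolysaccharide receptor, overlapped between the groups. Its bright probe, at chr4:66503724-66503782, gave -1.72, -1.64 and -1.89 with imiquimod and -2.00, -3.12 and -1.56 with vehicle. Vehicle sample 2 stood below the other arrays and vehicle sample 3 above all of them. Tlr4 differed by 0.47 on the log2 scale (SE 0.40, 95% interval -0.50 to 1.45, adjusted p 0.419 by limma). It was 0.03 without vehicle sample 2 and 0.81 without vehicle sample 3. A second probe that the files also name Tlr4, 86774 bases further on, was not well above background on any array.

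Tlr5, the flagellin receptor, was measured by 1 probe at chr1:184906201-184906260. It gave -1.68, -1.84 and -1.65 with imiquimod and -1.97, -2.66 and -1.31 with vehicle, and the groups overlapped. Tlr5 differed by 0.26 on the log2 scale (SE 0.33, 95% interval -0.56 to 1.07, adjusted p 0.613 by limma). Without vehicle sample 2 it was -0.08. The intervals of Tlr4 and Tlr5 leave room for a rise or a fall, so these genes are not shown to have stayed level.

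Myd88, the shared adaptor, was measured by a probe on 10 spots at chr9:119245322-119245381. Its log2 values were 2.59, 2.49 and 2.30 with imiquimod and 1.48, 1.77 and 1.72 with vehicle. The groups did not overlap, and the samples of each group lay within a narrow range. The means were 2.46 ± 0.15 and 1.66 ± 0.15 (SD, n = 3 each). The log2 difference was 0.80 (SE 0.14, 95% interval 0.47 to 1.13, adjusted p 0.0124 by limma). This call was lost without imiquimod sample 1 (0.73, adjusted p 0.0523) and without imiquimod sample 2 (0.79, adjusted p 0.0546).

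**Figure D2:**
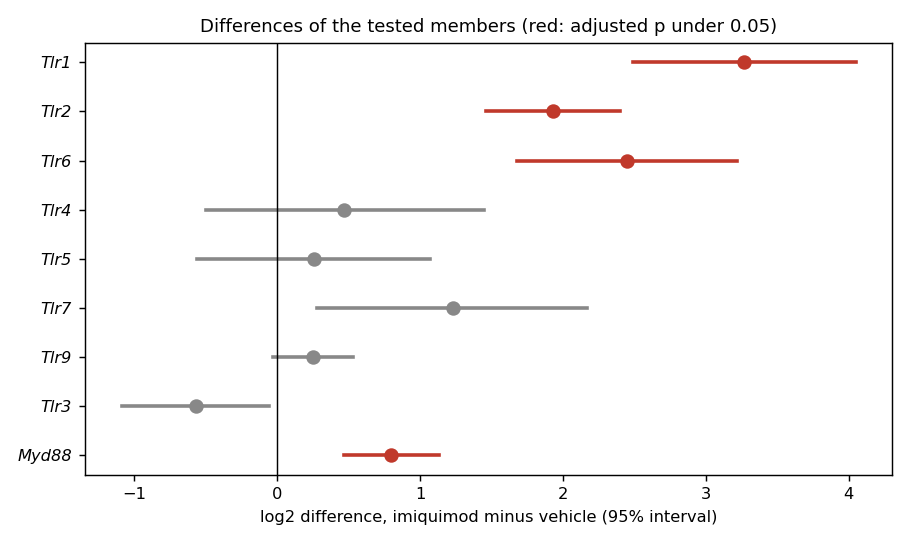
Log2 difference, imiquimod minus vehicle (horizontal axis), of the 9 tested members, with points for the fitted difference and lines for its 95% interval; red marks an adjusted p under 0.05 by limma. Tlr1, Tlr6, Tlr2 and Myd88 are red, from 3.27 down to 0.80; the intervals of Tlr7 and Tlr3 do not reach 0 although their adjusted p missed the threshold, and those of Tlr4, Tlr5 and Tlr9 hold 0.

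The arrays lay on 2 slides, each scanned separately: slide 1 held imiquimod sample 1 and the 3 vehicle samples, and slide 2 held imiquimod samples 2 and 3. Within slide 1 the log2 differences were 3.05 for Tlr1, 2.09 for Tlr2, 2.69 for Tlr6, 0.94 for Myd88 and 0.89 for Tlr7. These differences had the same direction as over all arrays, but with 1 array against 3 none of the members passed (adjusted p 0.102, 0.0751, 0.128, 0.16 and 0.49 by limma). With the slide as a block the differences are the same, and Tlr1, Tlr2 and Tlr6 passed (adjusted p 0.0362, 0.0287 and 0.0457 by limma) while Myd88 did not (0.064). Vehicle samples 2 and 3 were marked for evaluation by the extraction software, because their negative controls averaged 40.9 and 45.2 (net signal), where the other arrays ranged from 31.7 to 37.6. Without both of them, which leaves 1 vehicle array that is assumed to vary like the others, the 4 members called were again higher, with log2 differences of 3.23 for Tlr1, 2.05 for Tlr2, 2.47 for Tlr6 and 0.98 for Myd88 (adjusted p 0.0107, 0.0218, 0.00939 and 0.0346 by limma). Vehicle sample 3 was the highest of its group for 8 of the 9 tested members and vehicle sample 2 the lowest for 6 of them. An array detected 61.2% to 67.4% of its probes above background, and precision is limited by how few arrays there were.

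The 250 bases before the start sites of the members that rose were examined for motifs of factors that act downstream of the receptors or in myeloid cells. Windows came from RefSeq on GRCm38.p6, which held 10 for 8 of the 10 members and none for Tlr4 or Tlr7. Searched on both strands were an NF-kappaB site, the interferon-response form (GAAA, any 2 bases, GAAA) and the core GAGGAA bound by Ets-family factors such as PU.1. Capitals mark the matches in the windows of the members that rose, shown where one was found.
Tlr1, chr5:64933559-64933808, minus strand: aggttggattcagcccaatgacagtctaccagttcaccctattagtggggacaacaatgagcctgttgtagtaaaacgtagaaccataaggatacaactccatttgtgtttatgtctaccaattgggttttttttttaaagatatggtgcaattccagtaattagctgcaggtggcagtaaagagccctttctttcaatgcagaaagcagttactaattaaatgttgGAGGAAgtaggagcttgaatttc
Tlr2, chr3:83841609-83841858, minus strand: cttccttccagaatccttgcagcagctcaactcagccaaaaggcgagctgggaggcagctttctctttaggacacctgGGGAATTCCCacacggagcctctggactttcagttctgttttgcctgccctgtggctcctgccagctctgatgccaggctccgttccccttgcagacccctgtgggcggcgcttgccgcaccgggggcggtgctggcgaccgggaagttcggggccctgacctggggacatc
Tlr6, chr5:64959167-64959416, minus strand: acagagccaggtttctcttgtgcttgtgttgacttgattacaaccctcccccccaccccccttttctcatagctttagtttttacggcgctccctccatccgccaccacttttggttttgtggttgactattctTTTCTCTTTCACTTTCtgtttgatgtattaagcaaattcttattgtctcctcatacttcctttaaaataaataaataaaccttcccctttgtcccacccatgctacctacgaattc
Myd88, chr9:119340019-119340268, minus strand: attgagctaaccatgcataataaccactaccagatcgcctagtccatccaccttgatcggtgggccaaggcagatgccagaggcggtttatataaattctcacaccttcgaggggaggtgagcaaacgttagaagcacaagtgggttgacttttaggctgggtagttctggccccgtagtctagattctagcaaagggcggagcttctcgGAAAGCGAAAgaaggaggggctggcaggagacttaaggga
The window of Tlr2 held an NF-kappaB site, GGGAATTCCC, which reads the same on both strands, 172 to 163 bases before the start. Tlr6 held 2 overlapping matches to the interferon-response form on the opposite strand, and Myd88 held GAAAGCGAAA 40 to 31 bases before the start. Tlr1 held GAGGAA 23 to 18 bases before 1 of its start sites, and the windows at the other start sites of Tlr1 and Tlr6 held no match. Among 32851 windows of all genes, 5.0% held an NF-kappaB site, 2.98% the interferon-response form and 23.3% GAGGAA. A match is a match of letters, and binding was not measured here. Of the members not called, Tlr3 also held an NF-kappaB site, GGGAGTTTCC, and Tlr8 and Tlr9 held GAGGAA, so matches were not limited to the members that rose.

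Other genes of the pathway were taken from lists by role. Of 100 such genes beside the members, 97 were on the array and 88 were tested. Of these 24 were called higher (27.3%, against 23.6% called over all genes) and 0 lower by limma, with a median log2 difference of 0.40. At an unadjusted p under 0.05, 37 were higher and 3 lower. The count of 24 fell to 11, 9, 10 and 12 without imiquimod samples 1, 2 and 3 and vehicle sample 1, and was 27 and 33 without vehicle samples 2 and 3. With the slide as a block it was 3 (Cd14, Tirap and Vcam1, named after their values were seen). Without vehicle sample 2, 3 genes were called lower, namely Cd36, Cyld and Sigirr.

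Among 14 co-receptors and chaperones of the receptors, 6 rose and none fell by limma (unadjusted, 9 higher and 1 lower), with a median of 0.67. Cd14, which hands lipopolysaccharide and lipoproteins to the receptors, rose by 2.39 (SE 0.24, adjusted p 0.00323). Unc93b1, the chaperone that carries the nucleic acid receptors to endosomes, rose by 2.02 (SE 0.32, adjusted p 0.00993), and the endosomal transporter Slc15a3 by 1.90 (SE 0.31, adjusted p 0.011). Also called were the endosomal proteases Lgmn and Ctss, at 1.28 and 1.49, and Ly86, the partner of Cd180, at 1.46. Cd180 itself, a surface relative of the receptors, rose by 2.17 (SE 0.32, adjusted p 0.00863), while the inhibitory relative Sigirr was at -0.47 (adjusted p 0.114). The partner of Tlr4, Ly96, was at 0.99 and missed the threshold (adjusted p 0.0744), and the general chaperones Hsp90b1 and Cnpy3 were at 0.11 and 0.07.

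Of 19 adaptors and kinases tested, 5 rose and 0 fell by limma (unadjusted, 8 and 0), with a median of 0.26. Pik3ap1, an adaptor that links the receptors to phosphoinositide 3-kinase, rose by 2.25 (SE 0.34, adjusted p 0.00888). Irak4, the kinase that binds Myd88 directly, rose by 1.10 (SE 0.18, adjusted p 0.0106). Ticam1, the adaptor of Tlr3, rose by 0.73 (SE 0.12, adjusted p 0.0121), Tirap, the bridge to Myd88 at the membrane, by 0.79, and the kinase Ripk1 by 0.66. The kinases Irak1 and Irak2 were at 0.18 and 0.38 and the ubiquitin ligase Traf6 at 0.52 (adjusted p 0.352, 0.132 and 0.0519), none of which passed. Of 9 transcription factors, Irf8, Rela and Nfkb2 rose, by 1.01, 0.43 and 0.61 (adjusted p 0.0401, 0.041 and 0.0436), and 0 fell (unadjusted, 4 and 0). Of 13 negative regulators 1 rose, Tnip1 by 0.50 (SE 0.10, adjusted p 0.0179), and 0 fell (unadjusted, 4 and 1). Il1rl1 and Zc3h12a, at 1.00 and 1.51, missed the threshold (adjusted p 0.0517 and 0.0547).

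The outputs of the pathway were listed by the factor that drives them. Of 16 tested genes driven by NF-kappaB, 8 rose and 0 fell by limma (unadjusted, 10 and 0), with a median of 2.03. Vcam1, an adhesion molecule for leukocytes, rose by 2.29 (SE 0.20, adjusted p 0.0023). The chemokines Ccl3 and Cxcl2 rose by 4.86 (SE 0.79) and 5.26 (SE 0.86), with adjusted p of 0.011 and 0.0111, although they were well above background in only 2 of 3 and 1 of 3 vehicle samples. With normexp background correction these differences were 3.47 for Ccl3 and 2.56 for Cxcl2. Il1b was called at 3.79, a call lost when any 1 array other than vehicle sample 2 was left out, while Tnf and Il6, at 1.49 and 2.01, were not. Of 15 tested interferon outputs none passed by limma (unadjusted, 1 higher and 0 lower), with a median of 0.00. Cxcl10, a chemokine induced by interferons, was at 0.83 (adjusted p 0.0581) and Usp18, an inhibitor of interferon signalling, at -0.87 (adjusted p 0.277). The interferon gene Ifnb1 was not well above background on any array. The difference between the lists was not tested.

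**Figure D3:**
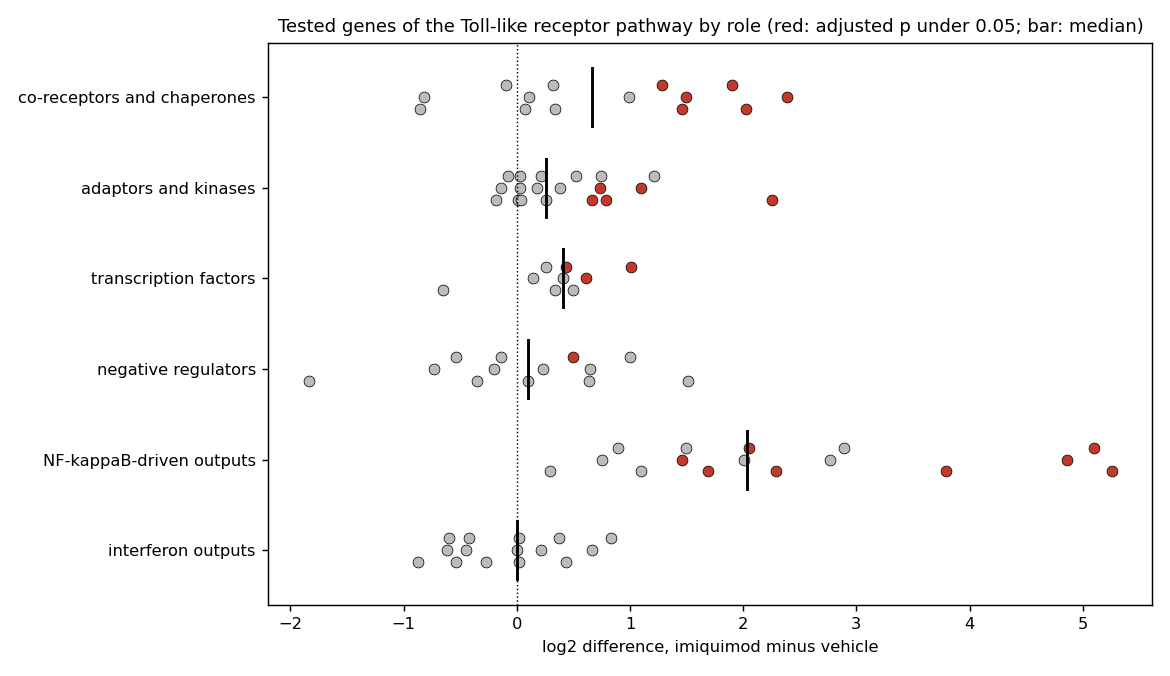
Log2 difference, imiquimod minus vehicle (horizontal axis), of the tested genes of the pathway by role (rows; vertical offset within a row only separates points); red marks an adjusted p under 0.05 by limma and black bars are list medians. The 16 NF-kappaB outputs have a median of 2.03 and 8 red points, and the 15 interferon outputs have a median of 0.00 and no red point.

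Markers of leukocytes did not all move in the same direction, as the lists below show. All 5 tested general leukocyte markers rose, with a median of 1.69, among them Coro1a by 1.97, Itgb2 by 2.06 and Ptprc by 1.61 (adjusted p 0.0115, 0.0181 and 0.0209 by limma). Their mean log2 values were 2.16, 2.57 and 2.17 with imiquimod and 0.63, -0.20 and 1.13 with vehicle. Vehicle sample 2 was thus the lowest and vehicle sample 3 the highest of the vehicle samples, as they were for Tlr1, Tlr3, Tlr4, Tlr5, Tlr6 and Tlr7. This order was not particular to leukocytes. The fibroblast list (5.29, 4.80 and 5.51 in vehicle samples 1 to 3) and the endothelial list (-0.27, -0.55 and 0.13) also had it. So did the fat and muscle lists, while the neutrophil and B cell lists did not. The mean of the T cell list did not have this order either. Within that list Cd3d, Cd3e and Cd3g had it, and Cd2, Cd4, Cd5 and Lck did not. Cd4, well above background in the vehicle samples only, ran from 1.00 in vehicle sample 2 to -4.72 in vehicle sample 3.

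Of 14 macrophage and monocyte markers, 7 rose and 0 fell by limma (unadjusted, 9 and 0), with a median of 1.09. The count was 4 without imiquimod sample 1, 2 or 3 or vehicle sample 1, 8 and 10 without vehicle samples 2 and 3, and 2 with the slide as a block. Their mean log2 values were 2.93, 3.1 and 2.90 with imiquimod and 1.70, 0.93 and 2.18 with vehicle. Cx3cr1, a chemokine receptor of monocytes, rose by 3.69 (adjusted p 0.004), and Cd14 is on this list too. Of the neutrophil markers, 9 of the 9 detected in both groups rose, among them S100a8, which is also on the list of imiquimod responses. The mean log2 values of the 10 tested were 2.65, 2.28 and 2.03 with imiquimod against -2.88, -0.94 and -2.28 with vehicle. The granule protease Mmp9 rose by 2.80 and the granule protein Camp by 2.43 (adjusted p 0.00266 and 0.00312). Ngp, another granule protein, was at least 16.0-fold higher, with no vehicle sample well above background, so passing the filter already placed it higher. The part of these cells in the differences of the members was not tested.

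Plasmacytoid dendritic cells are a classical site of Tlr7 and Tlr9, and 3 of their 10 listed markers were too dim to test: Siglech and Cd300c were well above background on no array and Klk1 on 1. A further 5 were well above background on all 6 arrays. Of the 6 markers detected in both groups, Ly6d rose by 0.99 and Ccr9 by 0.85, and 0 fell by limma (unadjusted over the 7 tested, 3 higher and 2 lower). The 2 lower were Pacsin1 at -2.14 and Cd209d at -1.39, which missed the threshold (adjusted p 0.0737 and 0.0655 by limma). Spib was well above background in the imiquimod samples only, at least 2.30-fold higher, so passing the filter already placed it higher. The mean of the 7 tested was 0.74 to 0.78 with imiquimod and 0.64 to 0.86 with vehicle. Spib is part of this mean, so the mean does not show whether the 6 markers detected in both groups overlapped. Ly6d is also a gene of keratinocytes. Of 10 markers of dendritic and Langerhans cells, 3 fell and none rose by limma (unadjusted, 6 lower and 0 higher): Epcam at -1.32, Cd207, the Langerhans cell lectin, at -1.89, and Cd209a, which was at least 2.00-fold lower with no imiquimod sample well above background, so passing the filter already placed it lower.

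Other lists moved as well. Of 6 mast cell markers detected in both groups, 5 rose, among them Fcer1a, Tpsb2 and Cma1 by 3.87, 1.97 and 1.78. Of 6 listed B cell markers, Ms4a1 and Pax5 were well above background on no array and Cd79a on 2, too few to test. The 3 tested rose, among them Cd79b by 4.21 and Cd22 by 3.04 (well above background in 1 of 3 vehicle samples). Of 7 T cell markers Cd5 rose by 1.55 and Lck fell, with a difference of -1.09, while Cd3e was at -0.76. Cd4 was not called (adjusted p 0.108 by limma). No imiquimod sample was well above background for Cd4, so passing the filter already placed it lower. Of 8 keratinocyte markers 4 rose and 1 fell, with Krt14 and Krt1 at 2.25 and 1.71 and Krt15 at -2.12. Fibroblast and endothelial markers rose in 4 of 7 and 4 of 6 cases, for example Col1a1, Col3a1 and Lum by 0.89, 1.11 and 1.09 and Emcn, Cdh5 and Vwf by 1.46, 1.18 and 1.35. Lists of fat and muscle each had 1 gene called, lower, Lep at -2.07 and Myh1 at -1.69, and the red cell list had none of 4 called by limma (unadjusted, 3 higher and 0 lower).

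Of 12 hair follicle genes detected in both groups 7 fell and none rose by limma (unadjusted over the 14 tested, 12 lower and 0 higher). Among the 7 were the inner root sheath keratins Krt71 and Krt27 at -12.01 and -8.07. Krt71 was well above background in 2 of 3 imiquimod samples. Krt25, which is not among the 12, was at least 2360-fold lower. No imiquimod sample was well above background for it, so passing the filter already placed it lower. The mean log2 values of the 14 tested were -3.34, -2.74 and -2.67 with imiquimod and 4.0, 5.29 and 0.97 with vehicle. Vehicle sample 3, the highest of its group for most of the members, was thus the lowest of its group for hair follicle genes. The part of the hair follicle in the differences of the members was not tested.

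**Figure D4:**
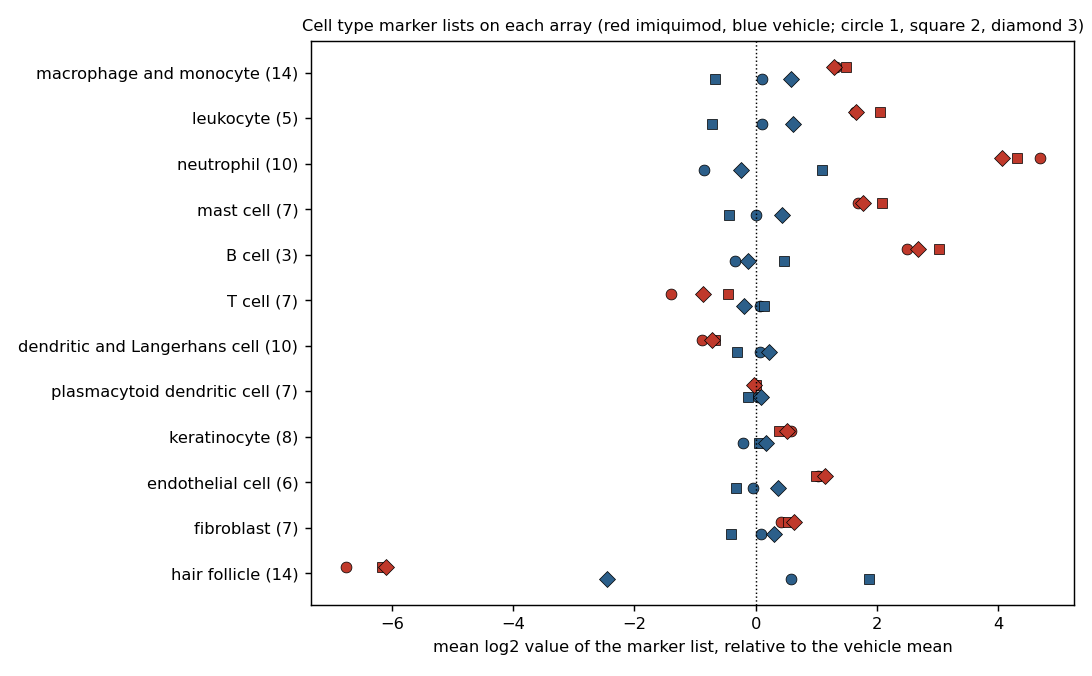
Mean log2 value of 12 cell type marker lists on each array, relative to the mean of the 3 vehicle samples (horizontal axis, log2 units); red marks imiquimod, blue vehicle, symbols the sample number, and the number beside a name is its count of tested genes. Macrophage, leukocyte, neutrophil, mast cell, B cell, keratinocyte, endothelial and fibroblast lists are higher in the 3 imiquimod samples without overlap. The T cell, dendritic and hair follicle lists are lower without overlap, and the plasmacytoid dendritic cell list overlaps. The neutrophil, mast cell, T cell, dendritic, plasmacytoid dendritic cell and hair follicle means include genes well above background in only 1 group. Passing the filter already placed those genes on 1 side, so overlap or its absence can depend on them.

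Genes with the profile most like a member over the 6 arrays were sought among 14895 gene symbols, by the root mean square difference of log2 values after each profile was centred. Nearest to Tlr7 were Alpk1 at 0.0669, Psma8 at 0.0994 and Cma2 at 0.129. Nearest to Myd88 were Tmem50b at 0.0522, Map3k20 at 0.0537 and Gimap9 at 0.0649. Likeness here covers the group difference and the order of the samples alike. Nearest to Tlr1 were Sh2d1b1 at 0.102, Lgi2 at 0.121 and Cd300c2 at 0.127. Nearest to Tlr2 were Mmp25, a membrane-bound protease of neutrophils, at 0.0967, Tmem125 at 0.123 and Ccdc88b at 0.126. For Tlr6 they were Pira2, a receptor of myeloid cells, at 0.09, Sfrp2, a secreted frizzled-related protein, at 0.102 and Cotl1 at 0.138.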

How the data were processed

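The authors deposited 1 scanner file per sample, whose processed signal is a linear intensity after background subtraction, per the file headers (Feature Extraction 10.7.3.1; the submitters' processing notes name version 9.1). They also deposited a value table on a log2 scale, with column medians of 7.05 and a between-array normalization not given in the sources used here.

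Control spots and 322 spots with an outlier mark were dropped and the spots of a probe averaged, leaving 41115 of 41174 probes. From each log2 signal the array's 75th percentile (861 to 1106 before the log) was subtracted. Each gene took the brightest of its tested probes. The comparison used limma (version 3.58.1, R 4.3.3) with eBayes, two-sided, and Benjamini-Hochberg adjustment at 0.05 over all genes, tested on simulated data. A permutation of 3 against 3 samples cannot go below a p of 0.1, so none was used. Alternatives covered normalization (quantile), background (normexp, offset 50), filters, probe choice, variance model, slide, replicate block, arrays left out, the value table and the files as filed.

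Members and lists were chosen with earlier results of these data known. Named are all members, the 3 genes of smallest p in each list and the 3 profiles nearest to Tlr7, Myd88 and each called member; other genes were named after their values were seen. Some genes under this rule are not reported here. Probes kept the files' names where neither a RefSeq accession nor a symbol matched. Lower bounds of a fold use, for the dim group, the lowest detected signal on each array.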

Additional observations from a re-analysis of the deposited data

How the results depend on the processing

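Apart from the reading of the files as filed, Tlr1, Tlr2 and Tlr6 kept their direction and passed under each alternative but 1: within slide 1, where the log2 differences were 3.05, 2.09 and 2.69. Their ranges were 2.57 to 3.54, 1.82 to 2.11 and 1.6 to 2.76. Myd88 ranged from 0.71 to 0.98 and did not pass within slide 1, with the slide as a block (0.94 in both), with the replicate block (0.80, adjusted p 0.0536 by limma) or without imiquimod sample 1 or 2. Tlr7 ranged from 0.85 to 1.55 and passed only without vehicle sample 3. Tlr5 ranged from -0.08 without vehicle sample 2 to 0.59 without vehicle sample 3. The cause of these changes was not tested, beyond the fewer arrays that some of the alternatives use.

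Taking the scanner files as filed, the differences were -3.27 for Tlr1, -1.93 for Tlr2, 0.57 for Tlr3, -0.47 for Tlr4, -0.26 for Tlr5, -2.45 for Tlr6, -1.23 for Tlr7, -0.25 for Tlr9 and -0.80 for Myd88, with 0 members called higher and 4 lower, and 0 other pathway genes higher and 24 lower; here the sign is turned by construction.

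Of the members, 4 were called higher, 3 to 5 with 1 array left out, 3 with the slide or replicate block, 5 with no filter on dim probes, where Tlr8 was added with vehicle values at background, and 0 within slide 1. Of the other pathway genes, 24 were called higher, 9 to 33 with 1 array left out, 11 with the replicate block, 3 with the slide as a block and 0 within slide 1; 3 were called lower without vehicle sample 2 and none with any other array left out. Over all genes 4193 were called, 1688 to 4670 with 1 array left out, 2205 with the replicate block, 1063 with the slide as a block and 8 within slide 1. No pairing by replicate number showed in the data, since the deviations of arrays that share a number had correlations over genes (not independent units) of -0.0872, 0.0667 and 0.0849. Signal over background limits Tlr3, Tlr8 and the second Tlr4 probe. Tlr3 gave no value under the filter that asks for all 6 arrays, and ranged from -0.73 to -0.27 under the others except the files as filed.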
